A study of Mus musculus with 57 samples.

Results

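The genes of glycolysis and of the citric acid cycle were examined in corticospinal neurons and control cells of the mouse brain. The set holds 43 of the 45337 genes in the table. It was listed by name, with earlier results of these data known. It has 4 transporters of glucose and lactate, 15 glycolytic enzymes, 12 genes of lactate and pyruvate handling and 12 citric acid cycle enzymes. All 43 were matched by symbol to 1 Ensembl gene each, and all 43 passed the filter on low values in CSN, in control cells and in all libraries together. A stricter filter, tried as an alternative, kept 41 in CSN and 42 in control cells and in all libraries, and 42 passed in CSN without the 90-day libraries.

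RNA was measured in 57 libraries from 32 animals, in a series whose title names ALS (amyotrophic lateral sclerosis). Corticospinal neurons (CSN), the cortical cells whose axons reach the spinal cord, were compared with cells that the labels name only as control cells. Animals were either wild type (WT) or carried Sod1G86R, a mutant superoxide dismutase that produces motor neuron disease in mice. Samples were taken at 30, 60, 90 and 105 days, the labels giving the numbers without a unit. In that order, Sod1G86R gave 3, 4, 4 and 2 CSN libraries and 3, 3, 4 and 4 control-cell libraries. WT gave 4 CSN libraries at each age and 4, 2, 4 and 4 of control cells. The driver of the mutant gene, the sex of the animals and the way the cells were isolated are not given in the sources used here. Of the animals, 25 gave both cell types. Libraries are separate animals within a cell type, and comparisons that share WT libraries are not independent of each other.

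Glycolysis splits glucose into pyruvate in the cytosol and yields a little ATP. Pyruvate then either becomes lactate, through lactate dehydrogenase, or enters mitochondria, where the pyruvate dehydrogenase complex turns it into acetyl-CoA for the citric acid cycle, which feeds electrons to the respiratory chain. In the brain, neurons and glia divide these steps: astrocytes and oligodendrocytes are known to release lactate that neurons can take up and oxidise, and many steps have separate neuronal and glial isozymes.

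Levels are normalised reads, that is, reads scaled per library by the authors. Fold changes are differences of log2(value + 34.6) between groups, which understate the change of low genes. Tests were made with limma over all genes, and a gene passed where its p, adjusted by the method of Benjamini and Hochberg, was under 0.05. Libraries held 22.2 to 64.2 M reads. Sod1 checked the genotype labels: it lay from 80216 to 172179 in Sod1G86R CSN and from 1806 to 4562 in WT CSN, and from 38567 to 155479 and from 1611 to 4244 in control cells. Cell types were checked with marker lists. In WT, 12 of 12 CSN markers were higher in CSN than in control cells. All 10 markers of upper-layer neurons, all 10 of astrocytes, oligodendrocytes and microglia each and 6 of 6 of oligodendrocyte precursors were lower. So were 9 of 10 endothelial and mural markers (not Pdgfrb, adjusted p = 0.0684 in limma) and 4 of 8 GABAergic markers. Of the remaining GABAergic markers, Sst, Lhx6 and Slc32a1 did not pass, and Pvalb was higher in CSN (log2 fold change 2.82, adjusted p = 5.16e-09). Bcl11b, which specifies CSN, was at 10678 ± 2016 in WT CSN and 244 ± 230 in WT control cells. In bulk samples, fewer cells of a type and less RNA per cell cannot be told apart, and the libraries may differ in how many other cells came along.

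In WT CSN, the members spanned a wide range when levels were set per kilobase of exon. The highest was Mdh1, the cytosolic malate dehydrogenase of the malate-aspartate shuttle, at 39192 normalised reads per kb. Next came the lactate dehydrogenase subunit Ldhb at 24588, the aldolase Aldoa at 22811 and the phosphoglycerate mutase Pgam1 at 14547. The aldolase Aldoc, at 7571, the mitochondrial malate dehydrogenase Mdh2, at 7332, and the neuronal enolase Eno2, at 6926, were close to each other. At the other end stood the hexokinase Hk2, at 3.26, the pyruvate dehydrogenase kinase Pdk4, at 28.8, and the monocarboxylate transporter Slc16a7, at 38.5. Hk2 had 19.4 ± 12.6 normalised reads in WT CSN (n = 16), below the 34.6 added before taking logarithms, so its fold changes are strongly damped. The 43 genes together took 1.63% ± 0.258 of all values in WT CSN (n = 16) and 2.27% ± 0.396 in Sod1G86R CSN (n = 13). In control cells they took 1.57% ± 0.239 in WT and 1.60% ± 0.321 in Sod1G86R (n = 14 each).

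The first comparison was Sod1G86R against WT in CSN, as the unweighted mean of the 4 ages (13 against 16 libraries). Of the 43 members, 28 rose, 1 fell and 14 did not pass. Over all 19093 genes tested, 19.1% passed, with 12.8% higher and 6.31% lower. The members' median log2 fold change was 0.41, beside -0.05 for all genes tested, of which 44.5% were above 0. By role, 10 of 12 citric acid cycle enzymes, 8 of 12 genes of lactate and pyruvate handling, 10 of 15 glycolytic enzymes and 0 of 4 transporters rose, and the difference between roles was not tested. For 0 members did the 13 and 16 libraries separate without overlap, beside 0.0157% of all genes higher and 0.0314% lower, and the largest rise, that of Pgk1, was 1.97-fold. With quantile normalisation 17 members rose and 3 fell, the members' median was 0.14, and Eno2, Pfkp and Gpi1 took the opposite sign (log2 fold changes of -0.045, -0.046 and -0.067).

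**Figure D1:**
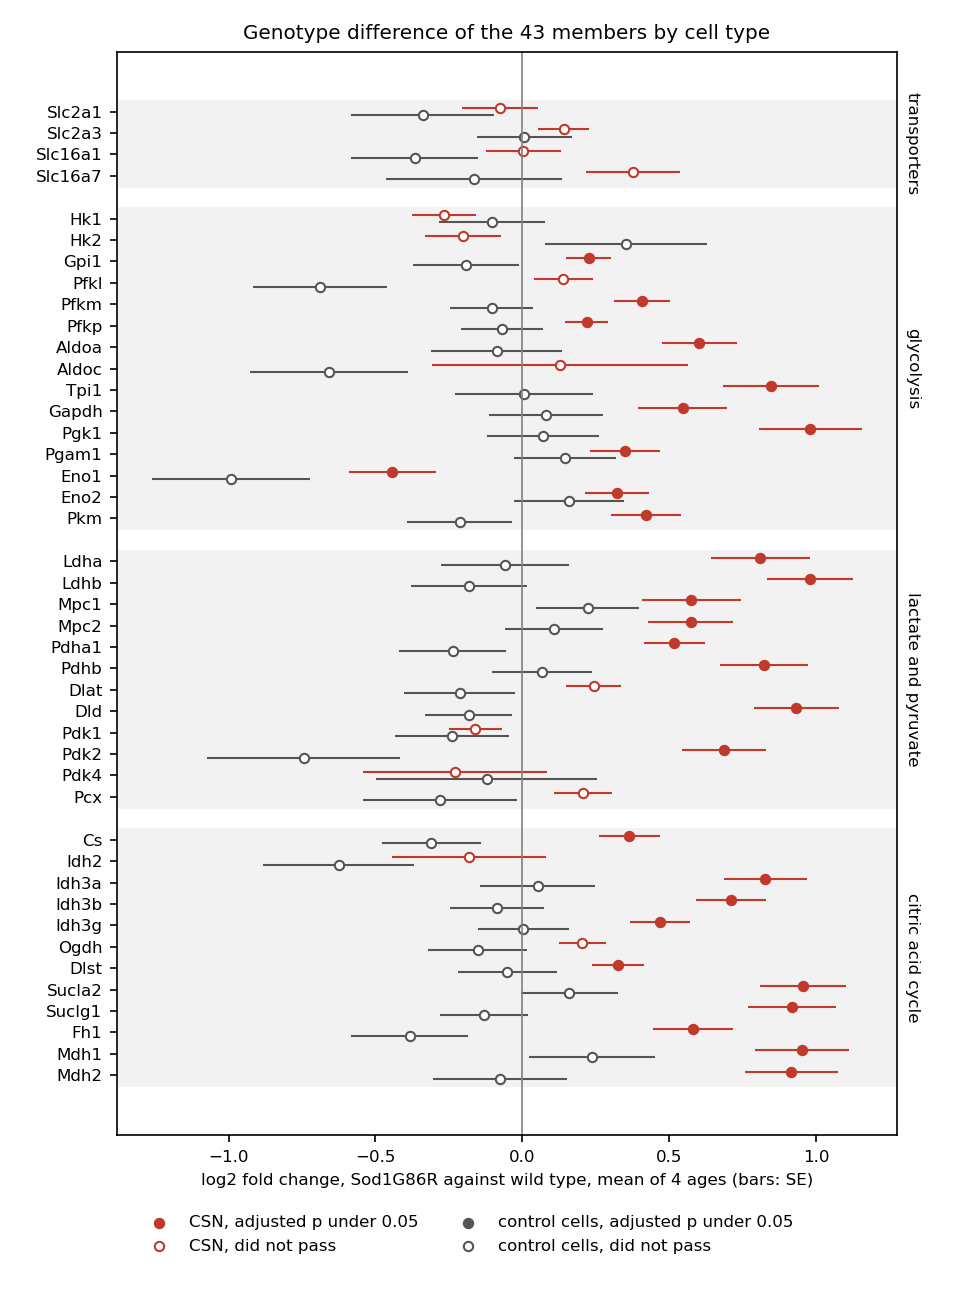
Log2 fold change of each of the 43 members between Sod1G86R and WT as the mean of the 4 ages, in CSN (red) and control cells (grey), by role, with SE bars. Filled points passed at an adjusted p under 0.05. In CSN 28 members lie to the right as filled points and Eno1 to the left, and no control-cell point is filled.

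Among glycolytic enzymes, the largest rises were in Pgk1 and Tpi1. Pgk1 (GRCm38 chromosome X, 106187100 to 106203699, plus strand), phosphoglycerate kinase, which makes the first ATP gained in glycolysis, ranged from 2703 to 7758 (median 4837) in Sod1G86R CSN and from 1235 to 3913 (median 2468) in WT. All 13 Sod1G86R libraries were above the WT mean and 9 were above every WT library (log2 fold change 0.98, SE 0.175, adjusted p = 0.000464). Tpi1 (chromosome 6, 124810586 to 124814296, minus strand), triose phosphate isomerase, ranged from 13310.1 to 45880.2 (median 27989) and from 7885 to 26859.8 (median 14694). Its ranges overlapped, with 8 of 13 Sod1G86R libraries above every WT library (log2 fold change 0.85, SE 0.164, adjusted p = 0.000856). Aldoa, the main aldolase of these cells per length, stood at 98695 ± 22678 and 66402 ± 14487 (SD; log2 fold change 0.60). Gapdh, often used as a reference gene, stood at 17059 ± 4372 and 11860.2 ± 3193 (0.55). Smaller rises were those of the pyruvate kinase Pkm (0.42), the phosphofructokinase subunits Pfkm (0.41) and Pfkp (0.22), Pgam1 (0.35), Eno2 (0.32) and the glucose phosphate isomerase Gpi1 (0.23). Eno2, Pgam1, Gpi1 and Pfkp lost their call in 17, 16, 13 and 8 of the 29 fits that left out 1 library. The copy Pgk1-rs7 stood at 5.61% of the level of Pgk1 and Pgam1-ps2 at 1.58% of that of Pgam1, so the split of reads between them is uncertain. Gapdh and Pfkp share exon bases with Iffo1 and Pitrm1 on the other strand, which stood at 8.39% and 13.3% of their levels, and the library kit does not mark strand.

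Eno1, the enolase found in glia and in most other tissues, was the 1 member that fell. It ranged from 2132 to 7122 (median 3892) in Sod1G86R CSN and from 3257 to 7502 (median 5241) in WT (log2 fold change -0.44, SE 0.148, adjusted p = 0.0351). The ranges overlapped broadly: 2 of 13 Sod1G86R libraries were above the WT mean. Its call was lost in 10 of the 29 fits that left out 1 library. A near copy, Eno1b, held 10.1% of the level of Eno1, so its value is uncertain in part. Eno2, its neuronal partner, ranged from 28070.4 to 50991 (median 39248) and from 20489 to 46016 (median 34288), so the enolases moved in opposite directions in this comparison, although the sign of Eno2 depended on the scaling as given above. Hk1, the hexokinase of neurons, was not called and had a negative difference (log2 fold change -0.27, SE 0.109, adjusted p = 0.0841), with 1 of 13 Sod1G86R libraries above the WT mean. With quantile normalisation Hk1 and the kinase Pdk1 also passed, both lower (-0.46 and -0.27). Hk2 (-0.20), Pfkl (0.14) and Aldoc (0.13) did not pass either.

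In lactate and pyruvate handling, Ldhb and Dld led. Ldhb (chromosome 6, 142490249 to 142507957, minus strand), the subunit that favours the conversion of lactate to pyruvate, ranged from 39213 to 101059 (median 81814) in Sod1G86R CSN and from 22383 to 53703 (median 39105) in WT. Every Sod1G86R library was above the WT mean, and 11 of 13 were above every WT library (log2 fold change 0.98, SE 0.147, adjusted p = 0.000144). Its partner Ldha (chromosome 7, 46841475 to 46855627, plus strand), the subunit that favours lactate, ranged from 8164 to 29050.5 (median 17616) and from 4848 to 19884 (median 9511) (log2 fold change 0.81, SE 0.169, adjusted p = 0.00159). For Ldha, 5 of the 13 Sod1G86R libraries exceeded every WT library. Dld (chromosome 12, 31331277 to 31351453, minus strand), the dehydrogenase subunit shared by the pyruvate and oxoglutarate dehydrogenase complexes, ranged from 3586 to 13162 (median 7747) and from 2179 to 5501 (median 4279) (log2 fold change 0.93, SE 0.144, adjusted p = 0.000164). For Dld, 11 of 13 Sod1G86R libraries were above every WT library.

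The subunits of the pyruvate dehydrogenase complex did not move by the same amount. The first enzyme's subunits Pdhb (0.82) and Pdha1 (0.52) rose, while the core acetyltransferase Dlat did not pass (log2 fold change 0.24, SE 0.0947, adjusted p = 0.0695). Pdk2, a kinase that switches the complex off, stood at 2368 ± 625 and 1457 ± 379.7 and rose (0.69). The other kinases among the members, Pdk1 (-0.16) and Pdk4 (-0.23), did not pass, while Pdk3, a kinase outside the set, rose (0.83). Both subunits of the mitochondrial pyruvate carrier rose, Mpc1 by 0.58 and Mpc2 by 0.57 on the log2 scale. Pyruvate carboxylase, Pcx, which refills the cycle with oxaloacetate, did not pass (0.21). Pdha1 shares 603 exon bases with Map3k15 and Mpc1 480 with a non-coding transcript, both on the other strand and at 0.5% and 3.59% of the members' levels.

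In the citric acid cycle 10 of 12 enzymes rose. Sucla2 (chromosome 14, 73525319 to 73596142, plus strand), a subunit of succinyl-CoA ligase, ranged from 7361 to 27248 (median 16882) in Sod1G86R CSN and from 5806 to 11351 (median 7798) in WT (log2 fold change 0.96, SE 0.147, adjusted p = 0.000164). Its binding partner Suclg1 (chromosome 6, 73248382 to 73276911, plus strand) ranged from 5639.6 to 15132 (median 12537) and from 3397 to 8702 (median 5886) (log2 fold change 0.92, SE 0.151, adjusted p = 0.000306). Above every WT library lay 10 of 13 Sod1G86R libraries for Sucla2 and 11 for Suclg1. Mdh1 (chromosome 11, 21556787 to 21572367, minus strand) ranged from 103675 to 273535 (median 200354) and from 59270.1 to 131889 (median 111764), with all 13 libraries above the WT mean (log2 fold change 0.95, SE 0.159, adjusted p = 0.000323). Its mitochondrial partner Mdh2 rose by a similar amount (0.92). The NAD-dependent isocitrate dehydrogenase rose in its 3 subunits, Idh3a (0.83), Idh3b (0.71) and Idh3g (0.47). Idh3b shares 5 exon bases with Nop56, which stood at 33.17% of its level. The NADP-dependent Idh2, a separate enzyme, did not pass (-0.18). Fumarase, Fh1 (0.58), citrate synthase, Cs (0.36), and Dlst (0.33), the core of the oxoglutarate dehydrogenase complex, rose. Ogdh, the first enzyme of that complex, did not pass (log2 fold change 0.20, SE 0.0799, adjusted p = 0.0692), although 12 of 13 Sod1G86R libraries were above the WT mean.

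None of the 4 transporters passed in CSN. Slc2a3, the neuronal glucose transporter, stood at 3798 ± 622 and 3449 ± 514 (0.14). Slc2a1, the glucose transporter of endothelium and glia, stood at 766 ± 134 and 879.6 ± 466 (-0.08). For lactate, Slc16a1 had a difference of 0.00 and the neuronal Slc16a7 one of log2 fold change 0.38, SE 0.159, adjusted p = 0.0915.

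Other measures of the libraries moved with the genotype in CSN. Mitochondrially encoded protein genes took 4.90 ± 1.77% of values in Sod1G86R CSN and 7.51 ± 2.39% in WT. Olfactory, vomeronasal and taste receptor genes, which brain cells barely use, took 0.0120 ± 0.00613% and 0.0201 ± 0.00785%. With the first share as a covariate limma called 0 members and with the second 0, with 20 and 21 at an unadjusted p under 0.05. The members' median was then 0.21 and 0.28, with 34 and 36 of 43 above 0. Over all genes, 25 and 38 passed in those fits in place of 3643. How many of all genes had an unadjusted p under 0.05 there, and their median, is not given here. Both shares differ between the genotypes, so their part in the rises and that of the genotype cannot be told apart. Ldhb kept a difference of 0.62 and Eno1 one of -0.74 with the mitochondrial share. Of glial markers in CSN, all 10 of astrocytes, 10 of oligodendrocytes and 10 of microglia had negative differences, with 0, 1 and 2 called. Their summed levels ran from 4130 to 41220 in Sod1G86R CSN and from 4183 to 43590 in WT for astrocytes. For oligodendrocytes these were 8777 to 107800 and 4640 to 320900, and for microglia 1291 to 15350 and 2994 to 17750. The mean log2 level of all glial markers was lower in Sod1G86R CSN (8.90 ± 0.864 and 9.58 ± 0.860). With that level as a covariate 24 members rose and 0 fell, so the call of Eno1 was lost. Other marker lists moved as well. Of 12 CSN markers 5 rose, Diaph3 (0.795), Parm1 (0.51), Igfbp4 (0.33), Crym (0.30) and Ldb2 (0.28), though with quantile normalisation 2 rose and 3 fell. Of 6 markers of oligodendrocyte precursors Pdgfra (-0.725) and Gpr17 (-0.86) fell. Of 6 GABAergic markers tested Pvalb rose (1.16), and of 10 upper-layer and 9 endothelial and mural markers tested 0 passed. The part of these lists in the members' rises was not tested. Without the 90-day libraries 17 members rose and 0 fell. By edgeR 26 rose and 2 fell, by DESeq2 30 rose and 2 fell, and with a replicate block 30 rose and 1 fell. Leaving out each library gave 22 to 30 calls in either direction. For these alternatives, and for the glial level and quantile normalisation, the share of all genes called is not given here.

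**Figure D2:**
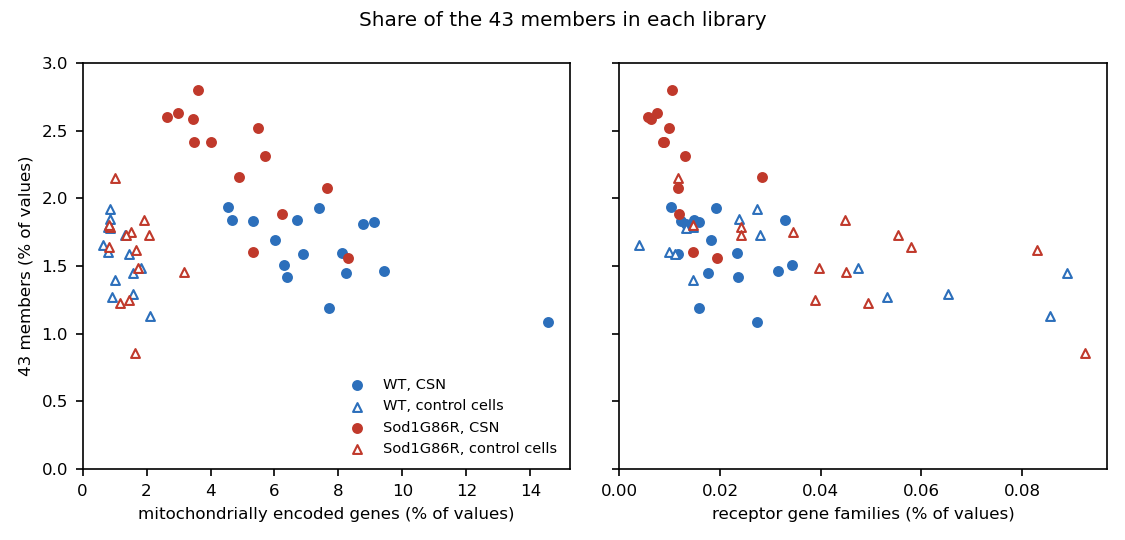
Share of all values taken by the 43 members (vertical axis, %) in each library against the share of mitochondrially encoded genes (left) and of receptor gene families (right, both %). Circles are CSN and triangles control cells, red Sod1G86R and blue WT. Sod1G86R CSN lie from 1.56 to 2.8% and WT CSN from 1.08 to 1.94%, and the Sod1G86R circles lie at lower values of both horizontal axes on average.

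The promoters of the members that moved together in CSN were read from the RefSeq table of GRCm38.p6, which gives 250 bases before to 50 after each start. It held 60 promoters of 40 of the 43 members (Slc2a3, Slc16a7 and Idh3a were not matched). Shown are the promoters of some of the leading members, and each promoter shown holds a match. Promoters of Ldhb and Tpi1, also among the leading members, held none of these motifs and are not printed. Capitals mark matches on either strand to ACGTG (the core of hypoxia response elements and of many E-box-like sites). They also mark TGACGT (the start of the cAMP response element) and the NRF1 motif (the site of a regulator of nuclear genes for mitochondria). The sequences run 5′ to 3′ along the strand of the gene, and overlapping matches share capitals.
Pgk1, chrX:106186850-106187149, plus strand: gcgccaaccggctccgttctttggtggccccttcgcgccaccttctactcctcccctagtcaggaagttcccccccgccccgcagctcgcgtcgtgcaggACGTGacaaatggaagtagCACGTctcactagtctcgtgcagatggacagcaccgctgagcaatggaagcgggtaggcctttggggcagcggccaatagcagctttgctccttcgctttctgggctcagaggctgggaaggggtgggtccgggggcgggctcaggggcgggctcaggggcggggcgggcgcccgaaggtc
Ldha, chr7:46845554-46845853, plus strand: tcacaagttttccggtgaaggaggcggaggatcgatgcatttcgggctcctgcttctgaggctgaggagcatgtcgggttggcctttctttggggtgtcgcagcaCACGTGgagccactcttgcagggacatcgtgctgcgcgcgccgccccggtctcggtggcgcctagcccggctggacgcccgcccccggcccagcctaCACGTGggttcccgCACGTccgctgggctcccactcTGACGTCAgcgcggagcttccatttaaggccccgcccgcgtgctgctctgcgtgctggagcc
Mdh1, chr11:21571885-21572184, minus strand: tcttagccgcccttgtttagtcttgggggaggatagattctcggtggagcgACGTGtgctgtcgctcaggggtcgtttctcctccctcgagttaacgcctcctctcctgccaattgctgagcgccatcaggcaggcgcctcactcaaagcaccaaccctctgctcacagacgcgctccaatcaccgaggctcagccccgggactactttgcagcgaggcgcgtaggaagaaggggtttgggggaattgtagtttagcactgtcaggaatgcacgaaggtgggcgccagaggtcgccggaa
Sucla2, chr14:73552536-73552835, plus strand: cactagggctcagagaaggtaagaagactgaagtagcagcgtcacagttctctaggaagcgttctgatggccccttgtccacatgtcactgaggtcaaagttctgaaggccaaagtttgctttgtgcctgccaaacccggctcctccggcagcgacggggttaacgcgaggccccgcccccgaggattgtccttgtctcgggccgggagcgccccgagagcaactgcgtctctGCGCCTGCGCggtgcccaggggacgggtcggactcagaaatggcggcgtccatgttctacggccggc
Dld, chr12:31351422-31351721, minus strand: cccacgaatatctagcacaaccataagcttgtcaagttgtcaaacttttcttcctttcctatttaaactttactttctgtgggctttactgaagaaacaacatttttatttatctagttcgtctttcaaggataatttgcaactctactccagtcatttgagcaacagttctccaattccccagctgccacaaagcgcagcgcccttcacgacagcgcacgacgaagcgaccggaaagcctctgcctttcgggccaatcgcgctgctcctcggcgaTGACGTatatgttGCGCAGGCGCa

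Ldha held 5 ACGTG matches, in part the same palindrome read on both strands, and 2 of TGACGT, and Pgk1 held 2 of ACGTG. Counting a gene once over all its starts, ACGTG was found in 18 of 40 members (45.0%) and in 21.8% of the 27025 genes with a promoter in the table. TGACGT was found in 10 of 40 (25%) beside 8.37%, and the NRF1 motif in 5 of 40 (12.5%) beside 5.19%. Among the 27 members that rose in CSN and had a promoter, 11, 8 and 4 held the respective motif, and among the other 13, 7, 2 and 1. The RefSeq starts shown for Sucla2, Ldha and Mdh1 lie 27467, 4329 and 433 bases inside the gene spans given above, that of Pgk1 lies at the edge of its span, and that of Dld 18 bases outside. A match describes the letters of the window and does not show a bound site. Members with several starts have more bases to match, and no test was made.

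At each age the members' median in CSN was above 0, but few members passed. The medians were 0.40, 0.30, 0.47 and 0.48 at 30, 60, 90 and 105 days, with 38, 34, 39 and 36 of 43 members above 0. For all genes they were -0.026, -0.014, -0.016 and -0.031, with 47.3, 48.3, 48.6 and 47.1% above 0. With quantile normalisation the members' medians were 0.12, 0.14, 0.25 and 0.26, with 27, 31, 30 and 33 members above 0. With the mitochondrial share as a covariate they were 0.23, 0.07, 0.36 and 0.37, and with the receptor share 0.32, 0.22, 0.29 and 0.28. The medians of all genes in these alternative fits are not given here. At 30 days (3 against 4 libraries) limma called 0 of 43, beside 0.0157% of all genes. At an unadjusted p under 0.05 limma had 20 members, beside 13.5% of all genes. edgeR called 0 and DESeq2 8, and limma called 1 without WT 30-day replicate 4. The share of all genes that DESeq2 called at 30 days is not given here, so its 8 has no background beside it. Ldhb was 60768, 63519 and 101059 in Sod1G86R and 22383, 27914, 31569 and 48013 in WT, with no overlap (log2 fold change 1.23, SE 0.294, adjusted p = 0.128). Suclg1 was 8828, 9417 and 15132 and 3397, 4473, 5243 and 7724, again apart (log2 fold change 1.11, SE 0.301, adjusted p = 0.145). Sucla2 was 12835, 15893 and 24129 and 6948, 7329, 7444 and 11064 (log2 fold change 1.08, SE 0.294, adjusted p = 0.145).

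At 60 days (4 against 4) limma called 0, beside 0.0314% of all genes, and edgeR and DESeq2 called 0. At an unadjusted p under 0.05 limma had 15 members, beside 7.86% of all genes. Pgk1 was 2703, 2974, 4837 and 6534 in Sod1G86R and 1235, 1631, 1860.3 and 3474 in WT, so that the genotypes overlapped (log2 fold change 1.06, SE 0.323, adjusted p = 0.541). Dld was 3586, 4596, 7747 and 9081 and 2179, 2653, 3705 and 4889.7, also overlapping (log2 fold change 0.86, SE 0.266, adjusted p = 0.541). Pkm was 18053, 22801, 23043 and 31326 and 10426, 15025, 15493 and 22058 (log2 fold change 0.62, SE 0.221, adjusted p = 0.541).

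At 105 days (2 against 4) limma, edgeR and DESeq2 called 0, beside 0.021% of all genes by limma. At an unadjusted p under 0.05 limma had 18 members, beside 8.02% of all genes. Mdh2 was 47639 and 72618 in Sod1G86R and 24207, 26112, 27405 and 38799 in WT (log2 fold change 1.04, SE 0.359, adjusted p = 0.617). Mdh1 was 206209 and 227140 and 76952, 112838, 127998 and 131889, both Sod1G86R libraries standing above all 4 of WT (log2 fold change 0.98, SE 0.361, adjusted p = 0.617). Suclg1 was 12019 and 14205 and 5849, 7045, 7345 and 7701 (log2 fold change 0.91, SE 0.342, adjusted p = 0.617).

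At 90 days (4 against 4 libraries) 12 members rose and 0 fell, beside 3.48% of all genes higher, 1.38% lower and 4.86% in either direction. They were Ldha, Ldhb, Pdha1, Pdhb, Dld and Pdk2 in pyruvate handling and Idh3a, Idh3b, Idh3g, Sucla2, Suclg1 and Mdh1 in the cycle. None of the 15 glycolytic enzymes passed at this age. Dld was 6567, 9713, 11379.6 and 13162 in Sod1G86R and 3297, 3455, 4931 and 5331 in WT, with every mutant library above (log2 fold change 1.24, SE 0.266, adjusted p = 0.0231). Ldhb was 59236, 81814, 91257 and 96152 and 29756, 31038, 44779.7 and 48443 (log2 fold change 1.101, SE 0.272, adjusted p = 0.0249). Its partner Ldha was 13802, 18323, 20361 and 20407 and 4848, 7159, 11809 and 11967 (log2 fold change 1.102, SE 0.313, adjusted p = 0.0407). For both lactate dehydrogenase subunits the genotypes did not overlap. Sucla2 was 11225, 21164, 25291 and 27248 and 6297, 7622, 9675 and 10375 (log2 fold change 1.27, SE 0.272, adjusted p = 0.0231). Idh3a was 22255, 31955, 39354 and 42652 and 9549, 14294, 18527 and 21212 (log2 fold change 1.12, SE 0.261, adjusted p = 0.0236), and neither it nor Sucla2 overlapped. Counting without a model, 16 of 43 members were higher in every Sod1G86R library than in every WT library, beside 7.33% of all genes, and 0 were lower in every one, beside 5.38%.

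The 90-day calls were lost when some single libraries were left out, while the members' median was about as large. No call was left when Sod1G86R replicate 3, 5 or 6 or WT replicate 7 or 9 of the 90-day CSN was left out, and the median was then 0.43, 0.53, 0.42, 0.44 and 0.475, beside 0.47 with all libraries. Up to 16 calls were made without others. With quantile normalisation 5 rose and 1 fell. Without the filter, where the median was again 0.47, or with the mitochondrial or receptor share as a covariate, limma called 0, with 24, 20 and 13 at an unadjusted p under 0.05. With the number of detected genes as a covariate 7 were called, by edgeR 11 and by DESeq2 16. For these alternatives the shares of all genes called, or at an unadjusted p under 0.05, are not given here. The mitochondrial share at this age was 4.39 ± 2.18% and 5.65 ± 0.870%.

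Whether the genotype difference depended on age was tested by the interaction of genotype and age in CSN. It passed for 0 of 43 members by limma, edgeR and DESeq2, beside 0.0% of all genes by limma. In limma 1 member, Slc2a1, had an unadjusted p under 0.05 (adjusted p = 1.0), beside 3.1% of all genes. The calls at 90 days are therefore not shown to differ from the other ages.

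**Figure D3:**
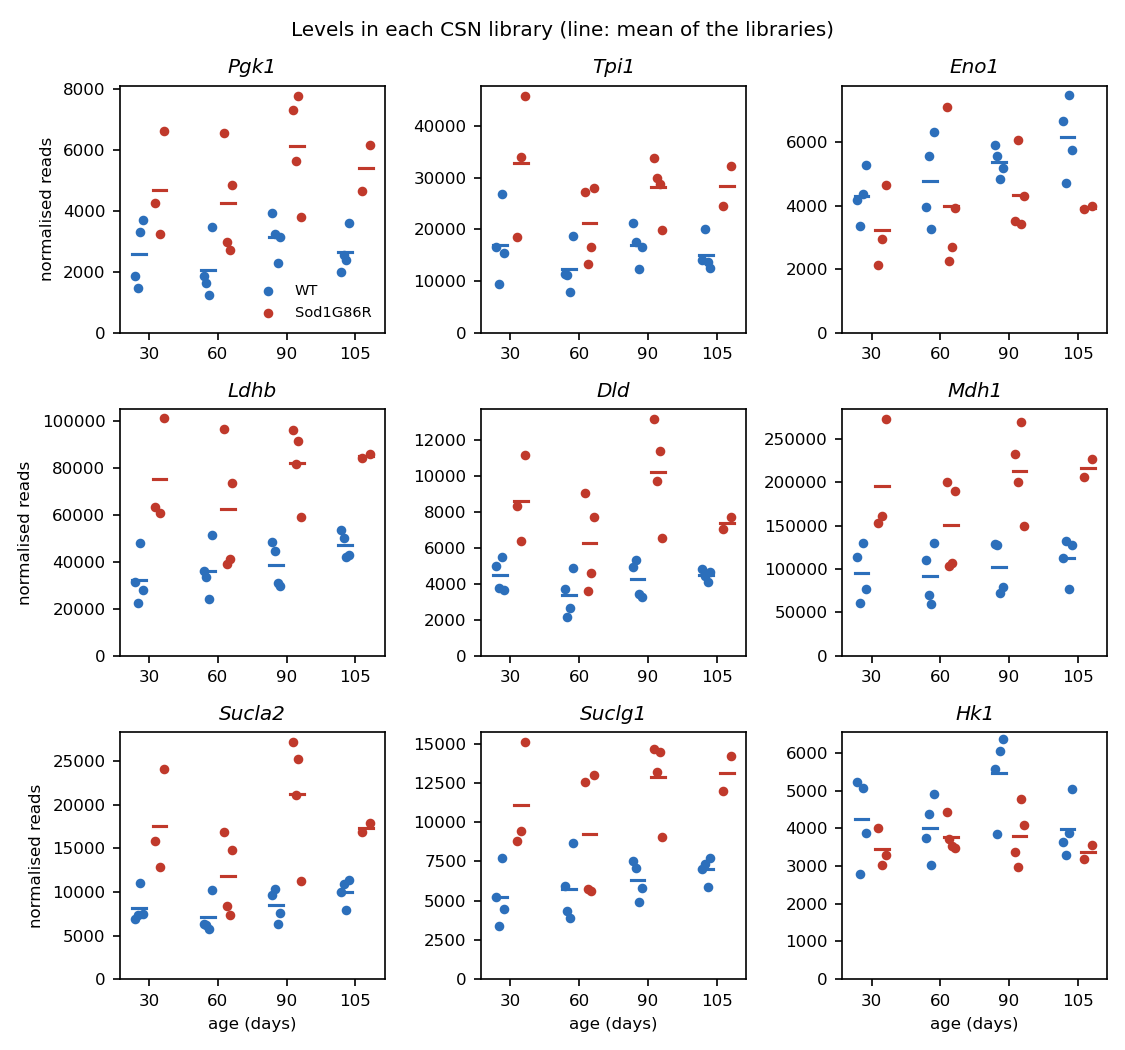
Normalised reads of 9 members in each CSN library by age (days), blue for WT and red for Sod1G86R, with a line at each group's mean. Ldhb, Dld, Sucla2, Suclg1 and Mdh1 are higher in red at each age on average, Eno1 and Hk1 are lower, and the ranges of the genotypes overlap at 60 days in each of the 9 panels.

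Slc2a1 had the smallest p of the members between the youngest and oldest WT animals in both cell types. In WT CSN it was 915, 1182, 1919 and 1923 at 30 days and 521, 599.6, 829 and 880 at 105 days, with no overlap (log2 fold change -0.997, SE 0.241, adjusted p = 0.517). In WT control cells it was 5250.3, 7157, 8790.4 and 9310.3 and 1234, 1911, 2681 and 3117, also apart (log2 fold change -1.80, SE 0.445, adjusted p = 0.0943). In Sod1G86R CSN it was 593, 704 and 876 at 30 days, below every WT library of that age, and 691 and 779.6 at 105 days. No member passed for age in WT CSN by limma, edgeR or DESeq2, beside 0.0% of all genes by limma. In limma 3 had an unadjusted p under 0.05, Slc2a1, Pdk1 (-0.37) and Ldhb (0.59), beside 6.22% of all genes. In WT control cells limma and edgeR called 0 and DESeq2 1, beside 0.00955% by limma. There 4 had an unadjusted p under 0.05 in limma, among them Pdk2 (-1.69) and Slc16a1 (-0.92), beside 12.5% of all genes.

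In control cells, the genotype comparison over the 4 ages called 0 of 43 members by limma, edgeR and DESeq2 (14 against 14 libraries), beside 0.0716% of all genes by limma. At an unadjusted p under 0.05 there were 5, beside 11.7% of all genes, a similar share. The members' median was -0.11, with 14 above 0 and 29 below. The smallest p was that of Eno1, from 1534 to 15104 (median 5513) in Sod1G86R and from 3212 to 20396 (median 9537) in WT (log2 fold change -0.99, SE 0.269, adjusted p = 0.154). Pfkl, the liver-type phosphofructokinase, was next, from 782 to 4821 (median 1695) and from 921 to 5683 (median 2909) (log2 fold change -0.69, SE 0.228, adjusted p = 0.266). Aldoc came after them, from 9596 to 69244 (median 29027) and from 7809 to 234917 (median 38402) (log2 fold change -0.66, SE 0.27, adjusted p = 0.366). All 3 pairs of ranges overlapped widely. At 30, 90 and 105 days limma, edgeR and DESeq2 each called 0, beside 0.00955% of all genes by limma at each of these ages. In limma 1, 0 and 0 members had an unadjusted p under 0.05, beside 5.25, 2.81 and 4.45% of all genes. At 30 days the smallest p-values were those of Eno1 (-1.21, adjusted p = 0.926), Pcx (0.87, adjusted p = 0.971) and Suclg1 (-0.50, adjusted p = 0.971). At 90 days the smallest p-values were those of Pfkl (-0.77, adjusted p = 1), Idh3g (0.49, adjusted p = 1) and Sucla2 (0.50, adjusted p = 1). At 105 days the smallest p-values were those of Tpi1 (0.78, adjusted p = 1), Slc2a3 (-0.46, adjusted p = 1) and Pdk1 (-0.49, adjusted p = 1).

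At 60 days 1 member fell in control cells, Aldoc, the aldolase of astrocytes, beside 1.29% of all genes lower, 0.105% higher and 1.4% in either direction. It was 22763, 26548 and 31139 in Sod1G86R and 147230 and 234917 in WT (log2 fold change -2.80, SE 0.634, adjusted p = 0.026). Both WT libraries were far above the 3 of Sod1G86R, and also above the range of WT control cells at the other ages, which ended at 85492. Glial markers moved with it: their mean log2 level was highest of all libraries in these WT libraries, at 14.1 and 14.3, and from 11.7 to 12.8 in Sod1G86R of that age. All 10 astrocyte markers, 10 oligodendrocyte markers and 10 microglia markers had negative differences at 60 days, with 1 of each called. Limma called no member with the glial level as a covariate, with 5 at an unadjusted p under 0.05. Nor did it without WT replicate 1 or 2 or Sod1G86R replicate 3 or 7 of these control cells. Leaving out WT control replicate 3 of 90 days gave 4, replicate 12 of 105 days 5 and replicates 9 and 13 of 105 days 3 each. The count was 2 without WT 30-day replicate 4, Sod1G86R 30-day replicate 2 or 3, 60-day replicate 5 or 105-day replicate 9, 10 or 13. DESeq2 called 5 and edgeR 1. With the mitochondrial share, the receptor share or the detected genes as a covariate limma called 0, with 4, 4 and 7 at an unadjusted p under 0.05. The shares of all genes in these alternative fits, DESeq2 and edgeR among them, are not given here.

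The difference of the genotype effect between the cell types was tested over all libraries as an interaction. It was higher in CSN for 15 members and lower for 0, beside 3.84% of all genes higher, 2.42% lower and 6.26% in either direction. The members' median difference was 0.54, beside -0.03 for all genes, and 40 of 43 were above 0. Dld had the smallest p (difference 1.12, SE 0.206, adjusted p = 0.00445), with a log2 fold change of 0.93 in CSN and -0.18 in control cells. In control cells Dld ranged from 4748 to 15098 (median 6583) in Sod1G86R and from 5369.7 to 9578 (median 7712) in WT. Suclg1 (difference 1.05, SE 0.214) went from 0.92 to -0.13 and Ldhb (1.16, SE 0.249) from 0.98 to -0.18. In control cells Suclg1 ranged from 4079 to 15656 (median 8002) in Sod1G86R and from 6457 to 10559 (median 7926) in WT, and Ldhb from 11918 to 66625 (median 39122) and from 15917 to 55650 (median 38145). For all 3 genes the genotypes overlapped there. In glycolysis, Pgk1 (0.91, SE 0.264), Pfkl (0.83, SE 0.251) and Pfkm (0.51, SE 0.163) passed. Pgk1 ranged from 1534 to 8371 (median 3842) and from 2192 to 5954 (median 3510.4) in control cells. Pfkl had not passed in either cell type alone, at 0.14 in CSN and -0.69 in control cells. Pdk2 had the largest difference (1.43, SE 0.371), from 0.69 in CSN to -0.74 in control cells. Idh3b (difference 0.80, SE 0.197) ranged from 5579 to 16682 (median 8609) and from 5083 to 11736 (median 9819) in control cells. The others were Pdha1, Pdhb, Cs, Idh3a, Sucla2, Fh1 and Mdh2, with differences from 0.67 to 0.99.

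Dld, Ldhb and Suclg1 passed in all 57 fits that left out 1 library, while Pfkm, Idh3a, Pdhb and Pfkl lost their call in 39, 35, 27 and 24. The count ranged from 3, without WT control 60-day replicate 1, to 21. It was 6 without Sod1G86R control 60-day replicate 3, CSN 105-day replicate 13 or CSN 30-day replicate 6. It was 8 without Sod1G86R CSN 60-day replicate 1 or 105-day replicate 9, WT CSN 60-day replicate 3 or WT control 105-day replicate 12, and 9 without Sod1G86R control 30-day replicate 4 or 90-day replicate 3. The mitochondrial share moved the other way in control cells, 1.52 ± 0.62% in Sod1G86R and 1.18 ± 0.45% in WT. With it, with the receptor share or with detected genes as a covariate limma called 0 differences, with 6, 4 and 17 at an unadjusted p under 0.05. The members' median difference was then 0.215, 0.20 and 0.385. With the mitochondrial and the receptor share 38 and 31 of 43 were above 0. With quantile normalisation 3 passed, the median was 0.29 and 34 were above 0, and without the filter 5 passed. The counts and medians of all genes in these alternative fits are not given here.

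Between the cell types in WT (16 CSN against 14 control-cell libraries), 13 members were higher in CSN, 16 were lower and 14 did not pass. Over all genes 26.8% were higher and 29.5% lower, so the share of members called was near the background of 56.3%. Isozymes of enolase, of hexokinase and of phosphofructokinase went opposite ways. These CSN libraries are also the controls of the genotype comparison.

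Eno2, the neuronal enolase, had the largest positive difference, from 20489 to 46016 (median 34288) in CSN and from 6065 to 19737 (median 13372) in control cells (log2 fold change 1.56, SE 0.148, adjusted p = 9.59e-13). Its ranges did not overlap. Eno1 was lower, from 3257 to 7502 (median 5241) and from 3212 to 20396 (median 9537) (log2 fold change -1.04, SE 0.219, adjusted p = 6.9e-05), with ranges that overlapped in full. The hexokinase Hk1 was higher, from 2797 to 6368 (median 4131) and from 937 to 3186 (median 1804) (log2 fold change 1.44, SE 0.141, adjusted p = 2.32e-12), with 14 of 16 CSN libraries above every control-cell library. Hk2 was lower, from 4.11 to 40.6 (median 15.8) and from 26.7 to 329 (median 90.1) (log2 fold change -1.29, SE 0.202, adjusted p = 4.2e-07). Pgam1 (1.19), Pkm (0.79), Gpi1 (0.66), Pfkm (0.65) and Pfkp (0.42) were higher as well. Aldoc (-1.44), Pfkl (-0.54) and Pgk1 (-0.46) were lower.

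Slc2a1 had the largest difference of all members, from 466 to 1923 (median 760.1) in CSN and from 1234 to 10381 (median 2899) in control cells (log2 fold change -2.29, SE 0.195, adjusted p = 2.97e-14). Of 16 CSN libraries, 14 were below every control-cell library. The lactate transporter Slc16a1 was lower too, from 1293 to 3095 (median 1647) and from 1567 to 10199 (median 4121) (log2 fold change -1.12, SE 0.175, adjusted p = 3.72e-07). Its range overlapped that of control cells, and Slc2a3 (-0.02, SE 0.123) and Slc16a7 (-0.45, SE 0.236) did not pass. In pyruvate handling, Pcx was higher, from 906 to 1865 (median 1317) and from 85.5 to 938 (median 552) (log2 fold change 1.27, SE 0.186, adjusted p = 9.21e-08). Pcx is known mainly from astrocytes in the brain. Dlat was also higher, from 2927 to 4475 (median 3560) and from 1243 to 4162 (median 2619) (log2 fold change 0.46, SE 0.143, adjusted p = 0.00573). The carrier subunit Mpc1 was lower, from 5175 to 18976 (median 9215) and from 13166 to 37313 (median 16966) (log2 fold change -0.98, SE 0.172, adjusted p = 3.45e-06). Its partner Mpc2 was higher (0.35), and Dld (-0.92), Pdk4 (-1.40), Pdk2 (-0.78), Ldha (-0.70) and Pdhb (-0.48) were lower.

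In the citric acid cycle, Ogdh and Dlst, which act in 1 complex, were both higher in CSN. Ogdh was from 5157 to 8406 (median 5932) in CSN and from 1414 to 4254 (median 3132) in control cells, without overlap (log2 fold change 1.04, SE 0.124, adjusted p = 5.44e-10). Dlst was from 2108 to 4627 (median 3005) and from 722 to 2197 (median 1481) (log2 fold change 0.99, SE 0.123, adjusted p = 1.53e-09), with 15 of 16 CSN libraries above every control-cell library. Dld, the subunit that completes this complex, was lower, from 2179 to 5501 (median 4279) and from 5369.7 to 9578 (median 7712) (log2 fold change -0.92, SE 0.142, adjusted p = 3.15e-07). Idh2, the NADP-dependent enzyme, was lower, from 233 to 2260 (median 659) and from 296 to 7158 (median 1808) (log2 fold change -1.46, SE 0.258, adjusted p = 3.82e-06). Sucla2 was lower, from 5806 to 11351 (median 7798) and from 8157 to 17314 (median 12406) (log2 fold change -0.58, SE 0.153, adjusted p = 0.00112), as was Suclg1 (-0.47), while Cs was higher (0.44). The remaining cycle members did not pass. Without overlap were 3 members, Eno2, Ogdh and Pgam1, all higher in CSN, beside 2.65% of all genes higher, and 0 were lower, beside 1.73%.

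Glial markers and the mitochondrial share also differ between these cell types. The glial level was 9.58 ± 0.860 in WT CSN and 12.7 ± 1.01 in WT control cells on the log2 scale, and the mitochondrial share 7.51 ± 2.39% and 1.18 ± 0.45%, without overlap. With the glial level as a covariate 6 members were higher and 2 lower, and the differences of Aldoc, Pdk4, Idh2 and Eno1 turned to above 0. With the mitochondrial share 22 were higher and 1 lower, and those of Pgk1, Dld, Sucla2, Suclg1, Ldha, Pdhb, Pdk2, Pfkl, Eno1 and Aldoc turned. The part of the cell type and that of these measures cannot be told apart.

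**Figure D4:**
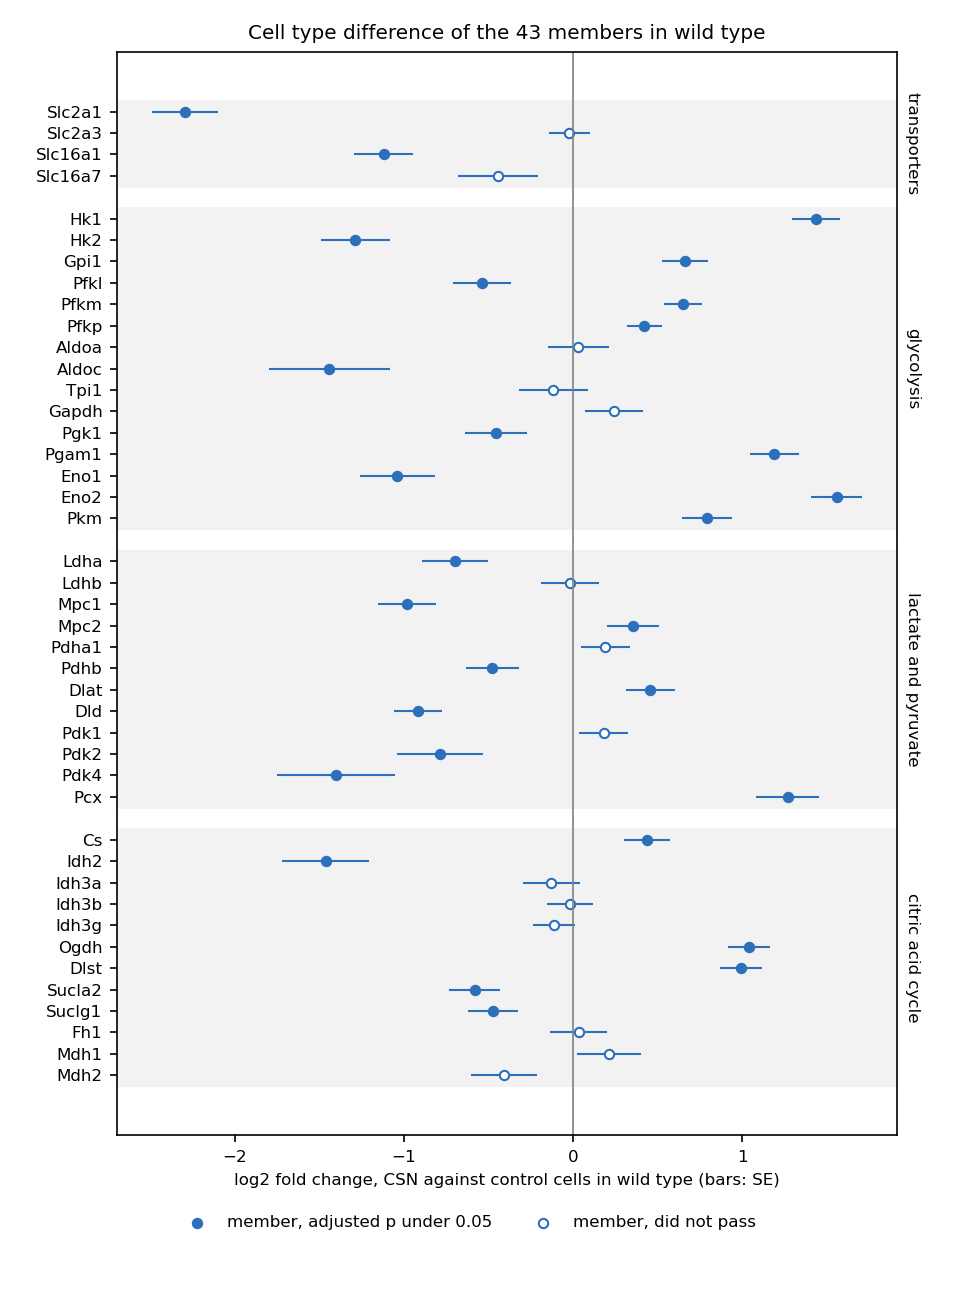
Log2 fold change of each member between CSN and control cells in WT animals over 4 ages, by role, with SE bars. Filled points passed at an adjusted p under 0.05. Eno2, Hk1, Pcx, Pgam1 and Ogdh lie farthest to the right and Slc2a1 farthest to the left.

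Ratios of isozymes within a library do not depend on its scaling by a single factor, apart from the added 34.6, and are given as descriptions (mean ± SD of log2 ratios). Eno2 to Eno1 was 3.40 ± 0.51 in Sod1G86R CSN and 2.65 ± 0.42 in WT CSN, against 1.18 ± 0.80 and 0.27 ± 0.98 in control cells. The mean ratio was higher in Sod1G86R than in WT in both cell types, with overlapping ranges. In CSN the glial marker level was also lower in Sod1G86R, as given above. In control cells that level ran from 11.3 to 13.1 in Sod1G86R and from 11.1 to 14.3 in WT. Its part in the ratio was not tested in either cell type. Per kilobase of exon, Eno2 stood at 6926 and Eno1 at 958 normalised reads in WT CSN, and at 2602 and 2009 in WT control cells. Ldhb to Ldha was 2.10 ± 0.28 and 1.92 ± 0.39 in Sod1G86R and WT CSN, with control cells at 1.14 ± 0.38 and 1.24 ± 0.55. The lactate dehydrogenase subunits therefore rose in Sod1G86R CSN with a ratio that moved by less than 1 SD. Slc2a3 to Slc2a1 was 2.26 ± 0.35 and 2.06 ± 0.69 in CSN, against 0.21 ± 1.22 and 0.05 ± 1.38 in control cells. Mdh2 to Mdh1 was -1.99 ± 0.17 and -1.94 ± 0.19 in CSN, almost the same in both genotypes, and -1.62 ± 0.33 and -1.38 ± 0.36 in control cells. Pfkl to Pfkm was -2.55 ± 0.25 and -2.30 ± 0.22 in CSN, against -1.71 ± 0.74 and -1.22 ± 0.62 in control cells. Hk2 to Hk1 was -6.30 ± 0.30 and -6.36 ± 0.50 in CSN, against -3.22 ± 0.93 and -3.79 ± 0.999 in control cells. The ratios are not set per length, so they compare libraries and not the isozymes themselves.

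**Figure D5:**
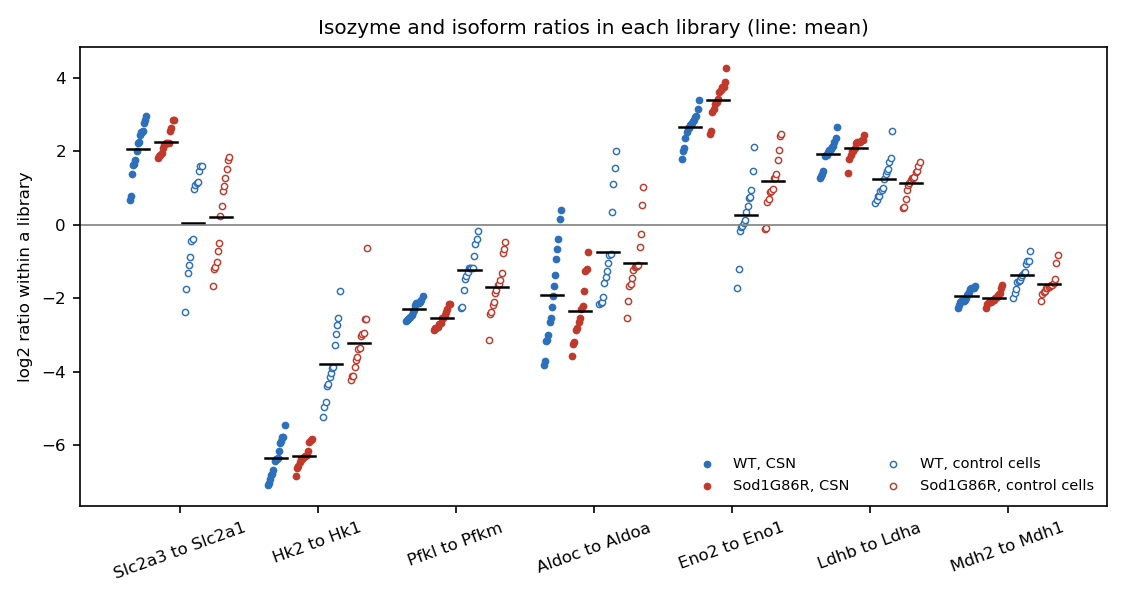
Log2 ratio of 7 isozyme pairs in each library, by cell type and genotype. Eno2 to Eno1 lies from 1.79 to 4.27 in CSN, and Hk2 to Hk1 lies far below 0 in every CSN library.

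The other genes of these pathways were followed as lists that do not hold the members. Of 29 tested genes among 30 others of pyruvate handling and the citric acid cycle, 12 rose and 0 fell in Sod1G86R CSN over the 4 ages (median 0.25). They include 4 subunits of succinate dehydrogenase, Sdha (0.71), Sdhb (0.68), Sdhc (0.50) and Sdhd (0.88). Genes of the malate-aspartate shuttle were also among them, the transaminases Got1 (0.89) and Got2 (0.50) and the carriers Slc25a11 (0.85) and Slc25a12 (0.61). These work beside Mdh1 and Mdh2, while the carrier Slc25a13 of the same shuttle did not pass (0.30). The remaining 4 that rose were Pdk3 (0.83), another kinase of pyruvate dehydrogenase, the phosphatase Pdp1 (0.62), Pdhx (0.52) and the malic enzyme Me3 (0.45). Of 19 tested among 25 other glycolytic genes 1 rose, Bsg (0.89), which carries lactate transporters to the membrane, and 0 fell (median 0.05). In the pentose phosphate pathway, which branches off after hexokinase and yields NADPH, 6 of 10 rose and 1 fell (median 0.38). Its entry enzyme G6pdx rose by 0.69 and Prps1 by 0.97, while Rpia fell (log2 fold change -0.46). Of 12 glycogen genes 1 rose, the branching enzyme Gbe1 (0.51). Over all genes tested 12.8% were higher and 6.31% lower, so the shares that rose in the glycolytic and glycogen lists were below the background. With the mitochondrial share as a covariate 0 genes of these lists passed in limma, as over nearly all genes. With quantile normalisation 11, 1, 4 and 0 rose in the order given here and 1 pentose phosphate gene fell.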

How the data were processed

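Per the series' design text, RNA from Trizol extracts was amplified with SMART-Seq v4 (11 cycles), made into libraries with Nextera XT (12 cycles) and sequenced as paired 50-base reads on a HiSeq 4000. Reads were aligned to GRCm38 with STAR 2.7.0 and counted per gene against Ensembl 87. The authors deposited a table of signal values, gene counts divided by a factor per library, by a scaling method that no source used here states. edgeR and mm10 are named in the submitters' processing notes without a role. In all 57 libraries the values were whole multiples of 1 read within 0.001 (in 6 of them 1 read was worth within 1.1% of 1, so deposited values and reads nearly coincide), which gave the depths (22.2 to 64.2 M reads) and the whole reads used by edgeR and DESeq2 as alternatives.

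Genes were kept at 34.6 (1 ppm of the median library total) in at least 3 libraries. Group means of log2(value + 34.6) were estimated by limma (version 3.58.1, R version 4.3.3, trended and robust variances), separately for CSN, for control cells and for all 57 libraries. P-values were adjusted by Benjamini-Hochberg over all genes tested. The script was tested on simulated data. The alternatives were other pseudocounts (0.25 and 4 times), filters (none, or 173 in 8 libraries), quantile and TMM scaling, covariates, a replicate block, edgeR 4.0.16, DESeq2 1.42.0, leaving out the 90-day libraries and leaving out each library. Detected genes are those with at least 5 reads. The covariate of mitochondrial genes uses 13 genes and that of receptor families 1801. Gene coordinates and exon lengths are those of GENCODE M21.

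The members, the marker and pathway lists and the comparisons were chosen with earlier results of these data known. All 43 members could be named. Values are given for the 2 members with the smallest p in each direction among those called in each role, for their partner isozymes and, where none passed, for the 3 smallest p. Others shown in full (such as Mdh1) were chosen after their values were seen. Nothing ties the replicate numbers to litters or days. For the 25 animals with both cell types, deviations from the group means correlated from -0.318 to 0.282 (median 0.0385). The main fits over all libraries took libraries of the same animal as independent, and a block by animal was an alternative.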

Additional observations from a re-analysis of the deposited data

Results flagged for a closer look

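For 15 members the effect of Sod1G86R differed between CSN and control cells by the interaction test in limma at an adjusted p under 0.05. The differences (log2, CSN minus control cells) were 1.43 for Pdk2, 1.16 for Ldhb, 1.12 for Dld and 0.75 and 0.76 for the pyruvate dehydrogenase subunits Pdha1 and Pdhb. In the citric acid cycle they were 1.05 for Suclg1, 0.80 for Sucla2, 0.99 for Mdh2, 0.96 for Fh1, 0.80 for Idh3b, 0.78 for Idh3a and 0.67 for Cs. In glycolysis they were 0.91 for Pgk1, 0.83 for Pfkl and 0.51 for Pfkm. All 15 were higher in CSN, beside 3.84% of all genes higher and 2.42% lower. The differences of Dld, Ldhb and Suclg1 passed whichever of the 57 libraries was left out. No member passed with the mitochondrial share, the receptor share or detected genes as a covariate. The members' mean level in each group, and leading genes at 90 days, were also searched for a library far from the rest, and 0 were found in 19 groups tested. With so few libraries in a group such a search can find little, and no conclusion is drawn from it.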

How the results depend on the processing

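In CSN over the ages 29 members were called. Among all members tested, limma called 0 with the mitochondrial share or the receptor share as a covariate, 19 with detected genes and 17 without the 90-day libraries. Leaving out each library gave 22 to 30 there, 0 to 1 at 30 days, 0 to 16 at 90 days, 0 to 5 in control cells at 60 days, 0 to 2 for age in WT control cells, 27 to 30 between cell types and 3 to 21 for the difference of effects. DESeq2 called 8 at 30 days in CSN and 1 for age in WT control cells. At 90 days the 12 calls became 0 without the filter and with the mitochondrial or receptor share, 6 with quantile scaling and 7 with detected genes. The 1 call in control cells at 60 days became 0 without the filter and with each covariate, 4 with the larger pseudocount, 5 with the strict filter and 5 by DESeq2. The 29 calls between cell types became 8 with the glial level. The 15 differences became 5 without the filter, 3 with quantile scaling, 0 with the mitochondrial share, detected genes or receptor share and 7 without the 90-day libraries. For most of these alternatives the share of all genes called is not given here. The cause of these changes was not tested.

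Signs turned with quantile scaling in CSN for Eno2 (-0.045), Pfkp (-0.046) and Gpi1 (-0.067). Between the cell types they turned with the mitochondrial share for Aldoc (0.097), Pfkl (0.869), Dld (0.172), Pdhb (0.52), Sucla2 (0.709), Pdk2 (1.626), Suclg1 (0.56), Pgk1 (1.083), Ldha (0.846) and Eno1 (1.278), and with the glial level for Aldoc (1.389), Pdk4 (0.646), Idh2 (0.505) and Eno1 (0.007). The log2 ratio of Hk2 to Hk1 was -7.539 and -4.643 in Sod1G86R CSN and -7.411 and -4.82 in WT CSN with the smaller and the larger pseudocount, so the low reads of Hk2 limit it.

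With the replicate number as a block within a cell type, 31 members were called in CSN, 15 at 90 days and 1 in control cells at 60 days. In the other comparisons within a cell type 0 were called. Fits over all libraries used the animal as the block instead, with a consensus correlation of 0.0367. They called 29 members between cell types and 16 for the difference. The same number in the genotypes of CSN gave correlations from -0.0464 to 0.483 (median 0.242) in 9 pairs, 5 of them over 0.1, and the block's consensus correlation was 0.269 in CSN. In control cells they were from -0.158 to 0.412 (median -0.0406) in 7 pairs. Of these libraries, 10 of 18 in CSN and 4 of 14 in control cells correlated best with their own number in the other genotype. Not every pair was over 0.1 and no label ties the numbers to a shared source, so the block was kept as an alternative, and whether the numbers mark one in CSN was not settled.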
